A study of Homo sapiens with 6 samples.

Results

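The genes described here are 10 inflammatory cytokines and chemokines, IL6, IL8, CXCL1, CXCL2, CXCL3, CCL2, IL1A, IL1B, IL11 and LIF, taken from the 57773 genes of the deposited count table by their symbols. IL8 is the older name of CXCL8 and is kept as the table spells it. RNA was sequenced from SW872, an established human liposarcoma cell line, in 3 replicates exposed to Apatinib at 18 μM over 24 h and in 3 control replicates without it. Apatinib is a tyrosine kinase inhibitor directed at the VEGF receptor VEGFR2. All libraries come from a single cell line cultured alone, and the labels give the control treatment as none and name no vehicle. Total counts per library ranged from 17043314 to 22067558. The comparison asked how 24 h of Apatinib changed the transcripts of these secreted factors in the tumor cells.

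The genes fall into families that signal through different receptors. IL-6, IL-11 and LIF are cytokines of a family that shares the receptor subunit gp130 (IL6ST) and activates JAK kinases and STAT3. IL-8 and the products of CXCL1, CXCL2 and CXCL3 are CXC chemokines that attract neutrophils through CXCR1 and CXCR2, and CCL2 attracts monocytes through CCR2. IL-1α and IL-1β act through IL1R1 and are classical inducers of the other genes, whose promoters are known for binding sites of NF-κB, AP-1 and C/EBP factors. Sarcoma cells are known to secrete several of these factors, and IL-8 is also known as an angiogenic factor.

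The libraries were first compared with their labels and with each other. Mesenchymal marker genes differed in level, with VIM between 776 and 1081 CPM (counts scaled to the effective library size) in each library. COL5A1 had 693 to 1089 CPM and PDGFRB 211 to 315 CPM. COL1A1 had 31.3 to 43.7 CPM, COL1A2 35.5 to 57.0 CPM, COL3A1 3.58 to 11.9 CPM and THY1 3.23 to 7.10 CPM. Among 5 mature adipocyte genes, 2, ADIPOQ and FABP4, had 0 counts throughout. Of the other 3, PPARG had 50.0 to 64.2 CPM, PLIN1 had 0.808 to 1.69 CPM and LEP had at most 0.116 CPM in a library. Among the marker genes of other lists, the epithelial EPCAM and CDH1 had at most 0.395 CPM. The epithelial KRT8 and KRT18 were expressed, with 31.0 to 67.3 and 61.65 to 87.72 CPM. The endothelial KDR, the gene of VEGFR2, had 0.183 to 0.621 CPM and was not tested. KRT8 (log2FC 0.71), the endothelial VWF (1.52) and the mesenchymal COL3A1 (1.18) were called higher and the endothelial CDH5 (-1.22) lower. PECAM1 was not analysed, and the part of these genes' changes in the results was not tested. Of 8 leukocyte marker genes, the pan-leukocyte gene PTPRC and LYZ had 0 counts in every library. CD14 had 2.29 to 5.17 CPM and CSF1R 0.462 to 1.26 CPM, and the others had at most 0.504 CPM in a library. The summed level of the list was 3.78 to 5.08 CPM with Apatinib and 5.20 to 6.92 CPM in the control. Control replicates 1 and 2 were much closer to each other (mean chi-square per gene 2.27) than any other pair of the same group, which gave 18.2 to 44.5, where sampling noise alone gives about 1. They were kept as separate samples, and calls lost with their counts summed as 1 sample are named below. The highest of these values was between Apatinib replicates 1 and 2. Pairs across the groups gave 26.5 to 78.4. The lowest of them, Apatinib replicate 3 and control replicate 3, was below the 34.3 of Apatinib replicates 2 and 3. In a bulk library, fewer cells that transcribe a gene and less RNA per cell cannot be told apart. Apatinib replicate 2 decides several of the values below, and those of the 10 genes are given with and without it.

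Levels of different genes were compared on the FPKM scale, which takes transcript length into account. The program behind these values is not given in the sources used here, and they did not always follow the counts. IL1A had 3 counts but was listed at 0 FPKM in Apatinib replicate 2, and IL6 had 9 counts in each of Apatinib replicates 1 and 3 but 0.493 and 0.281 FPKM. In the control, CCL2 was the most abundant of the 10, with 29.6 ± 2.69 FPKM (SD, n = 3), and was above 87.3% of all genes tested. LIF followed with 4.34 ± 0.337 FPKM, then IL8 with 2.87 ± 0.729 FPKM and CXCL1 with 1.95 ± 0.202 FPKM. IL1B had 1.39 ± 0.305 FPKM and IL11 had 1.06 ± 0.306 FPKM. The median control level over all genes tested was 6.13 FPKM, so that CCL2 was the only one of the 10 above it. CXCL3, IL6, CXCL2 and IL1A were lowest, with 0.406 ± 0.307, 0.217 ± 0.0803, 0.179 ± 0.0615 and 0.0613 ± 0.0442 FPKM. Neighbors in this order whose control replicates overlapped were IL8 and CXCL1, IL1B and IL11, IL11 and CXCL3, CXCL3 and IL6, and IL6 and CXCL2. With Apatinib, the ranges of neighboring genes overlapped from LIF down to CXCL2, and CCL2 remained separate at the top with 30.4 ± 4.80 FPKM (SD, n = 3).

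Of the 10 genes, 7 passed the filter on low counts and were tested. Changes are given as log2 fold changes (log2FC), positive where Apatinib was higher. A gene was called where |log2FC| exceeded 0.5 and the FDR was below 0.05, the limits of the study. IL11 was called higher and no gene of the group was called lower. Over all 16290 genes tested, 11.5% were called, made up of 5.97% higher and 5.48% lower. Of the 7, 3 genes, CXCL3, IL1B and IL11, had an unadjusted p value under 0.05, a limit that 30.6% of all genes tested passed. The median log2FC of the 7 genes was 0.09, against 0.00284 over all genes tested. It was -0.06 without Apatinib replicate 2, 0.76 and 0.74 without Apatinib replicates 1 and 3, and 0.44 and 0.37 without control replicates 2 and 3, the genes that passed the filter not being the same in each fit. The replicates of the 2 groups overlapped in CPM for 8 of the 10 genes. IL11 and CXCL2 were the exceptions, and 17.5% of all genes tested had every Apatinib replicate above every control replicate.

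**Figure D1:**
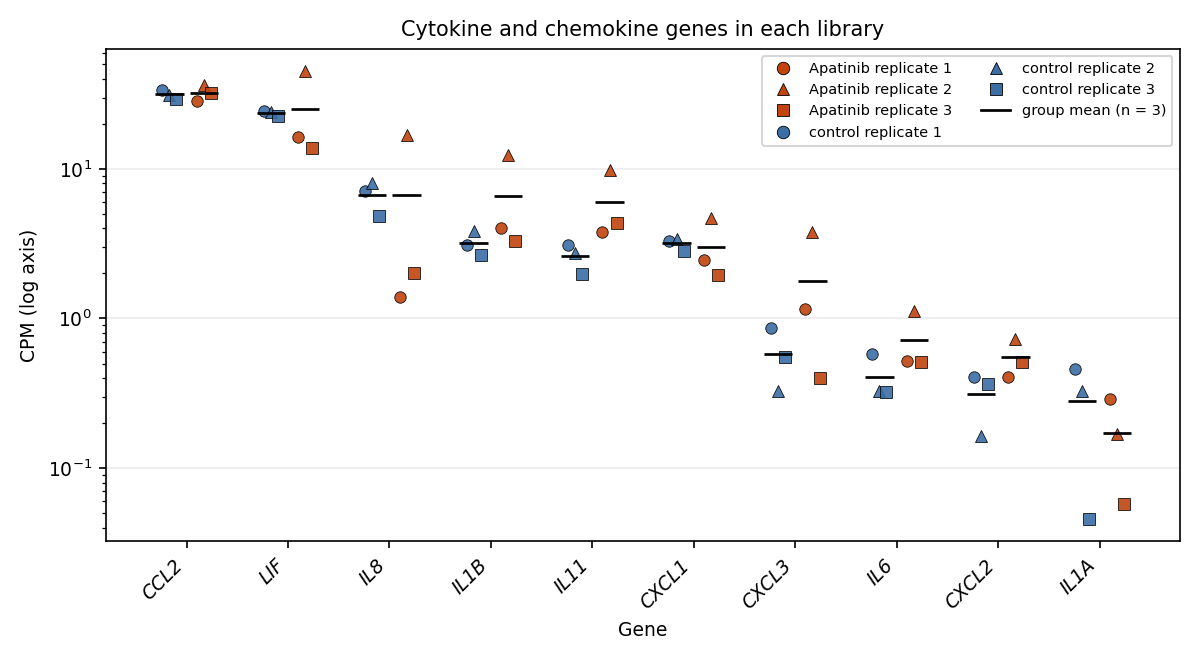
CPM of the 10 genes (log axis) in each of the 6 libraries, with circles, triangles and squares for replicates 1, 2 and 3 and a bar at the mean of each group. The triangle of Apatinib replicate 2 is the highest point for every gene except IL1A.

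Apatinib replicate 2 had the highest CPM of the 6 libraries in 9 of the 10 genes, and in all 7 of those tested. Among all genes tested, this library was the highest in 22.5%. In 6 of the 7 tested genes, its CPM was more than 2 times the mean of the other Apatinib replicates, which was so for 2.51% of all genes tested. The exception was CCL2, with a ratio of 1.21. The ratio was 9.86 for IL8, 4.84 for CXCL3, 3.39 for IL1B, 2.98 for LIF, 2.40 for IL11 and 2.13 for CXCL1. What sets this library apart was not tested. Without Apatinib replicate 2, IL8 and LIF were called lower and no gene of the group was called higher, where 3.63% of 16762 genes were called lower and 5.28% higher.

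**Figure D2:**
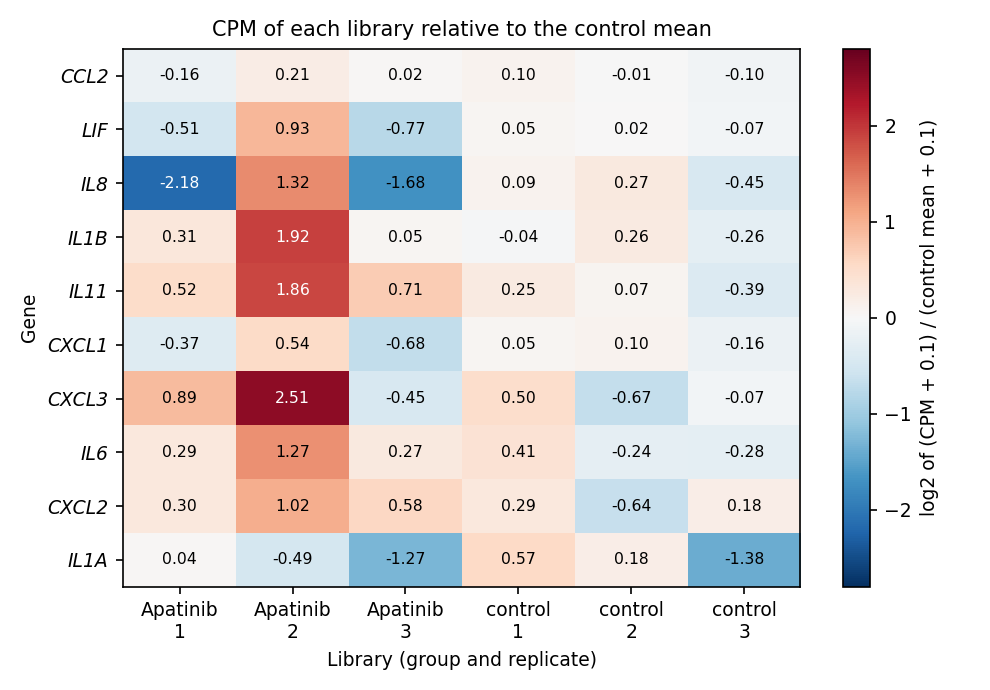
Log2 ratio of each library's CPM to the mean CPM of the control for the 10 genes, with 0.1 added to both, in rows ordered by mean CPM. The column of Apatinib replicate 2 reaches 2.51 for CXCL3 and 1.92 for IL1B, while Apatinib replicates 1 and 3 lie at -2.18 and -1.68 for IL8.

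Among the gp130 cytokines, IL11 (ENSG00000095752), a factor known for its part in fibrosis and bone turnover, had 3.78, 9.77 and 4.35 CPM in Apatinib replicates 1 to 3. The control replicates had 3.12, 2.75 and 1.97 CPM. Every Apatinib replicate was above every control replicate, and Apatinib replicate 2 was far above the others. The log2FC of IL11 was 1.20 (standard error 0.351, 95% interval 0.43 to 1.97, edgeR FDR = 0.0454). It was 0.66 without Apatinib replicate 2, with an edgeR FDR of 0.105, and the direction was the same in every setting tried. The call was also lost without control replicate 1, 2 or 3 (edgeR FDR = 0.104, 0.129 and 0.0720), at log2FC values of 1.34, 1.24 and 1.03. With control replicates 1 and 2 summed as 1 sample it was lost at 1.26 (edgeR FDR = 0.113). DESeq2, the tool of the study, gave an FDR of 0.0104. The share of all genes called higher was 6.73% with DESeq2, 1.24% with the controls summed, 1.15%, 1.29% and 6.56% without control replicate 1, 2 or 3, and 3.11% without Apatinib replicate 1, where IL11 was called. With the RLE size factors it was 5.84% and with a minimum of 10 counts in every library 6.12%, and IL11 was called in both. On FPKM with limma, 3.51% of genes were called higher and IL11 was not (limma FDR = 0.153), its values being 1.29, 3.42 and 1.82 FPKM with Apatinib against 1.36, 1.07 and 0.748 FPKM, so that the groups overlapped on this scale, as they did not in CPM.

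LIF (ENSG00000128342), leukemia inhibitory factor, had 16.5, 45.04 and 13.7 CPM with Apatinib against 24.4, 23.9 and 22.5 CPM in the control. The control replicates lay within a narrow range, with Apatinib replicates 1 and 3 below it and Apatinib replicate 2 above it. The log2FC was 0.09 (95% interval -0.67 to 0.85, edgeR FDR = 0.887), an interval that reaches past 0.5 in both directions. Without Apatinib replicate 2, LIF was called lower with a log2FC of -0.64 (edgeR FDR = 0.0235). In GENCODE 29, exons of LIF overlap the antisense genes LIF-AS1 and AC004264.1, and whether the counting used strand is not given in the sources used here.

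IL6 (ENSG00000136244), the founding member of the family, had 9, 20 and 9 counts with Apatinib and 10, 6 and 7 counts in the control. These counts did not pass the filter. At 1.13 CPM, Apatinib replicate 2 was the highest, and the other Apatinib replicates, with 0.524 and 0.515 CPM, lay within the control range of 0.321 to 0.577 CPM. Exons of IL6 also overlap an antisense gene, AC073072.1, and STEAP1B on the opposite strand in GENCODE 29.

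The CXC chemokine genes lie on chromosome 4. The 250 bases before the start of these genes, from RefSeq (GRCh38.p14), are shown because CXCL1, CXCL2 and CXCL3 resemble each other here and each hold the same 2 NF-κB-like elements. The windows are chr4:73740319-73740568 (plus strand) for IL8, chr4:73869143-73869392 (plus strand) for CXCL1, chr4:74099196-74099445 (minus strand) for CXCL2 and chr4:74038690-74038939 (minus strand) for CXCL3. Capitals mark matches to GGNNNTTCC, an NF-κB-like motif, or to TGANTCA, an AP-1 motif, on either strand.
IL8: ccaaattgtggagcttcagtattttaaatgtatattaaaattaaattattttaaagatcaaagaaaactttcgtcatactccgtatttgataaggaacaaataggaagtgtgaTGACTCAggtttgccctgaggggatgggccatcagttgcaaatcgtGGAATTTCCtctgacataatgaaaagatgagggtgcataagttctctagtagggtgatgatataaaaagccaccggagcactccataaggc
CXCL1: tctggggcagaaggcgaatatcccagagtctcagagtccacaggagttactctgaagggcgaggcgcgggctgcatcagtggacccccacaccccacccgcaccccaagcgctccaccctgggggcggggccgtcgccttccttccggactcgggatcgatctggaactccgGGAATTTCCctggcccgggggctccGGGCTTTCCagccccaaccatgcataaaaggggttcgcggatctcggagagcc
CXCL2: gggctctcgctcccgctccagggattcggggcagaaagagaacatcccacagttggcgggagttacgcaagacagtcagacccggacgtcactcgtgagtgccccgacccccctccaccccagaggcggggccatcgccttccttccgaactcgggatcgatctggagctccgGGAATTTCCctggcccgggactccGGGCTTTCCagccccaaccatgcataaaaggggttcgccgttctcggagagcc
CXCL3: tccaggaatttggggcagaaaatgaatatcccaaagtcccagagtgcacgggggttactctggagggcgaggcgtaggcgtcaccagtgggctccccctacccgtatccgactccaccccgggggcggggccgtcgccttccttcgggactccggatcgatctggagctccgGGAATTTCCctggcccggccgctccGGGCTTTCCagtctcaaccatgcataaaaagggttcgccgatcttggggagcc

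IL8 holds 1 match to each motif, GGAATTTCC from -91 to -83 and TGACTCA from -137 to -131, counted back from the start site. CXCL1, CXCL2 and CXCL3 each hold GGAATTTCC, from -78 to -70 in CXCL1 and CXCL3 and from -77 to -69 in CXCL2, and GGGCTTTCC, from -53 to -45 in all 3 genes, with no match to TGANTCA. The windows were aligned in pairs, and identity was taken over all alignment columns, gaps included. CXCL1 and CXCL3 were 81.4% identical (210 of 258 columns), and CXCL2 was 70.4% identical to CXCL1 and 73.3% identical to CXCL3. IL8 was 42.0% to 45.4% identical to each of them. Of all 35116 windows of this length in the RefSeq table, 17.1% held GGNNNTTCC and 6.57% held TGANTCA. These matches describe the letters of the windows and were not tested for binding.

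IL8 (ENSG00000169429), which encodes interleukin-8, had 24, 297 and 35 counts with Apatinib and 123, 146 and 106 counts in the control. In CPM these were 1.40, 16.8 and 2.003 against 7.10, 8.03 and 4.86. Apatinib replicates 1 and 3 were below every control replicate and Apatinib replicate 2 was above every control replicate, so that the means were nearly the same at 6.72 ± 8.70 and 6.66 ± 1.63 CPM (SD, n = 3 each). The log2FC was 0.02 (standard error 0.673, 95% interval -1.45 to 1.49, edgeR FDR = 0.987). Without Apatinib replicate 2 it was -1.95 (edgeR FDR = 0.00752). With the replicate number as a block, the value was -0.67 (edgeR FDR = 0.0794, from a fit with no gene-specific spread), and without control replicate 3 it was -0.17.

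CXCL3 (ENSG00000163734) had 20, 67 and 7 counts with Apatinib and 15, 6 and 12 counts in the control. Apatinib replicate 3 fell within the control range and the other Apatinib replicates lay above it. The log2FC was 1.62 (standard error 0.673, 95% interval 0.15 to 3.09), with an edgeR FDR of 0.130. CXCL3 was called higher without Apatinib replicate 3, with a log2FC of 2.09 (edgeR FDR = 0.0393, with 6.17% of all genes called higher), and had a value of 0.43 (edgeR FDR = 0.648) without Apatinib replicate 2.

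CXCL1 (ENSG00000163739), a neutrophil attractant also known as GROα, had 2.44, 4.69 and 1.95 CPM with Apatinib and 3.29, 3.41 and 2.84 CPM in the control. As for IL8 and LIF, the second Apatinib replicate was above the control range and the other replicates were below it. Its log2FC was -0.07 (95% interval -0.74 to 0.61, edgeR FDR = 0.908) and -0.53 without Apatinib replicate 2 (edgeR FDR = 0.162). CXCL2 (ENSG00000081041) had 7, 13 and 9 counts with Apatinib and 7, 3 and 8 counts in the control, and was not tested. Its Apatinib replicates were just above the control, the closest values being 0.407 and 0.404 CPM. Transcripts of the 3 genes share sequence: 12.5% of the 50-base stretches of CXCL2 transcripts in GENCODE 29 also occur in CXCL1 or CXCL3, against 6.0% for CXCL3 and 4.8% for CXCL1. Reads from such stretches could be counted on either gene or dropped, and how they were treated is not given in the sources used here. No 50-base stretch of IL8 occurs in another gene. For IL11, 2.1% of the 50-base stretches occur in other genes, and no 100-base stretch does.

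**Figure D3:**
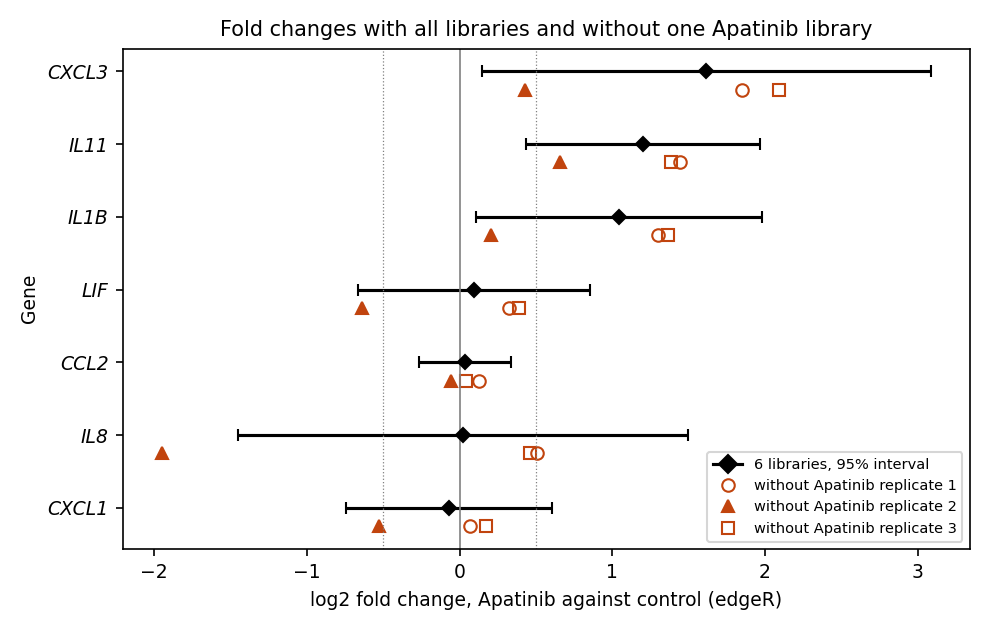
Log2FC of the 7 tested genes with all 6 libraries (black diamonds, 95% intervals) and without each Apatinib replicate in turn (orange symbols), with dotted lines at the limits of 0.5. The filled triangles, without Apatinib replicate 2, lie left of the other estimates of the same gene, by the most for IL8.

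IL1B (ENSG00000125538), the secreted IL-1 cytokine that is cleaved by caspase-1, had 4.01, 12.4 and 3.32 CPM with Apatinib. In the control it had 3.12, 3.85 and 2.66 CPM. Apatinib replicate 2 stood far apart, replicate 1 lay just above the control range and replicate 3 inside it. The log2FC was 1.04 (standard error 0.428, 95% interval 0.11 to 1.98, edgeR FDR = 0.125). It was 0.20 without Apatinib replicate 2 (edgeR FDR = 0.589). IL1A (ENSG00000115008), the IL-1 gene next to IL1B on chromosome 2, had 5, 3 and 1 counts with Apatinib and 8, 6 and 1 counts in the control. At 1 to 8 counts per library, a difference in IL1A was not detectable, and it was the only gene of the 10 in which Apatinib replicate 2 was not the highest library. With the replicate number as a block, IL1B was called higher with 0.84 (edgeR FDR = 0.0204) and CXCL3 with 1.28 (edgeR FDR = 0.0402), where 6.43% of all genes were called higher. Without the filter on low counts, which left 3.98% of genes called higher, both were called as well. In these 2 fits edgeR estimated no gene-specific spread (an infinite prior df, against 7.51 in the fit reported here), so that the p values there rest on the trend over all genes and do not carry the spread of these genes between replicates.

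CCL2 (ENSG00000108691), the monocyte chemoattractant also known as MCP-1, had 28.3, 36.6 and 32.1 CPM with Apatinib and 33.9, 31.4 and 29.5 CPM in the control. The groups overlapped throughout. Its log2FC of 0.03 had the smallest standard error of the group, 0.138, and a 95% interval of -0.27 to 0.34 (edgeR FDR = 0.894), which leaves out changes of 0.5 in either direction. Without Apatinib replicate 2 the value was -0.06.

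The receptors of these ligands were described from a list of 13 genes, of which 7 were tested, 1 being called higher and 1 lower. IL6R, the ligand-binding IL-6 receptor, had 6.98, 4.97 and 5.21 CPM with Apatinib against 2.48, 1.82 and 1.28 CPM in the control. The groups did not overlap, and Apatinib replicate 2 was the lowest of its group. Its log2FC was 1.63 (standard error 0.269, edgeR FDR = 0.00668), and IL6R remained called without any single library, with edgeR FDR values up to 0.0377. LIFR, the receptor of LIF, had 828 ± 186 CPM with Apatinib against 1529 ± 365 CPM in the control (SD, n = 3 each) and was called lower, its log2FC being -0.88 (edgeR FDR = 0.0209). LIFR was not called without Apatinib replicate 1 or control replicate 1 or 2 (edgeR FDR = 0.0578, 0.0952 and 0.0973), nor with limma on FPKM (limma FDR = 0.0743) or controls 1 and 2 summed (edgeR FDR = 0.0967), where IL6R still was (edgeR FDR = 0.0263). IL6ST, the shared gp130 subunit, had 442, 1009 and 544 CPM with Apatinib against 1018, 1041 and 551 CPM in the control, so the groups overlapped (log2FC -0.39, edgeR FDR = 0.407, and -0.81 without Apatinib replicate 2, edgeR FDR = 0.0589). OSMR, a partner of gp130 for oncostatin M, had a log2FC of -0.02, IL1R1 one of -0.04 and IL1RAP one of -0.0037. These were -0.28, -0.11 and -0.25 without Apatinib replicate 2, and none was called. Among the chemokine receptors, CXCR2 had 0 counts in every library, and CXCR1 and CCR2 had at most 0.0577 and 0.115 CPM in a library.

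**Figure D4:**
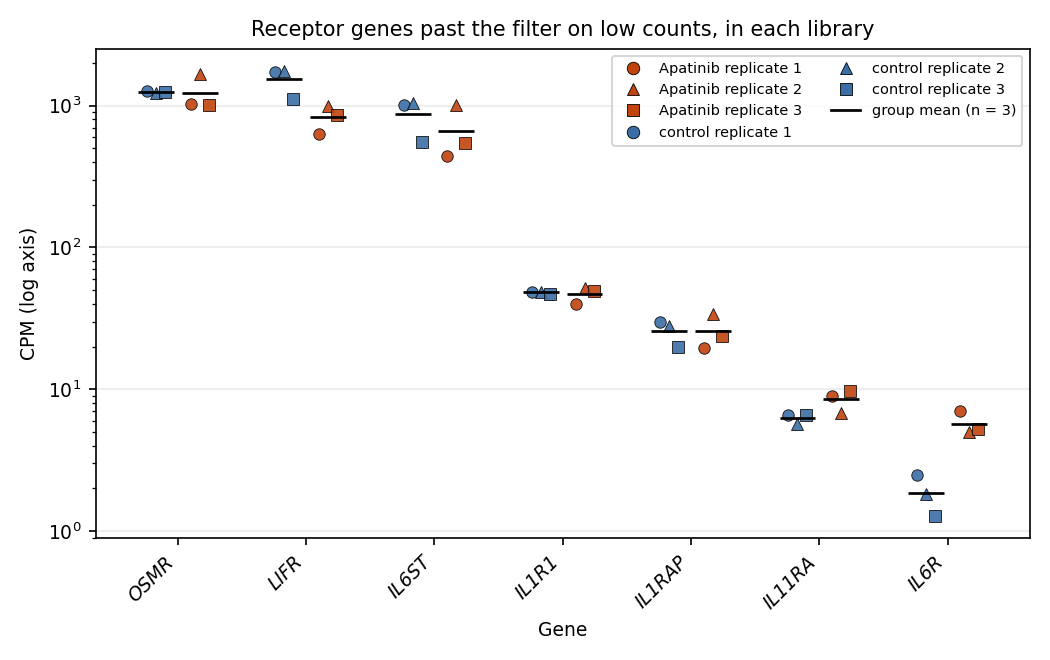
CPM (log axis) of the 7 tested receptor genes in each library, with symbols as in the plot of the cytokines and chemokines. All Apatinib points of IL6R lie above the control points and all those of LIFR lie below them, and Apatinib replicate 2 is the highest of the 6 for OSMR, IL1R1 and IL1RAP.

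Among 23 other chemokine genes, 6 were tested and 2 were called higher, none lower. These were CX3CL1 and CXCL16, which encode the membrane-bound chemokines of the CX3C and CXC classes. CX3CL1 rose from 2.20 ± 0.505 to 4.66 ± 0.670 CPM, and CXCL16 from 10.9 ± 1.40 to 18.7 ± 3.90 CPM (SD, n = 3 each). Their log2FC values were 1.07 and 0.78 (edgeR FDR = 0.0186 and 0.0231). Both were still called without Apatinib replicate 2, with values of 1.00 and 0.68. CCL26, an eosinophil attractant also known as eotaxin-3, was called higher in that fit (1.32, edgeR FDR = 0.0152), against 0.92 (edgeR FDR = 0.156) with all libraries. Neither CX3CL1 nor CXCL16 was called without Apatinib replicate 1 or control replicate 1 or 2. The edgeR FDR values there were 0.0556, 0.0901 and 0.0989 for CX3CL1 and 0.0673, 0.113 and 0.0979 for CXCL16. With controls 1 and 2 summed, both calls were lost (edgeR FDR = 0.0807 and 0.09999), and with limma on FPKM that of CX3CL1 was (0.43, limma FDR = 0.0850). In 13 of the 23 genes no library reached 0.1 CPM, among them CXCL6, CXCL9, CXCL11 and CCL8.

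Of 16 other inflammatory cytokines and growth factors, 9 were tested and CSF1, the macrophage growth factor, was called higher. CSF1 had 122, 159 and 97.0 CPM with Apatinib against 79.2, 77.2 and 86.5 CPM in the control, a log2FC of 0.64 (edgeR FDR = 0.0312). The call of CSF1 was lost without Apatinib replicate 1 or 2 (edgeR FDR = 0.0633 and 0.0560) and without control replicate 1 or 2 (edgeR FDR = 0.128 and 0.135), with these controls summed (edgeR FDR = 0.126) and with limma on FPKM (limma FDR = 0.0746). None of the 5 tested ligands among 7 other IL-6 family genes was called. The smallest p values there were those of CNTF, at 0.554 ± 0.0401 against 1.21 ± 0.198 CPM (SD, n = 3 each), and CTF1, at 5.76 ± 1.06 against 3.93 ± 0.501 CPM, with edgeR FDR values of 0.0537 and 0.101. None of 8 other IL-1 family genes passed the filter on low counts.

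The regulators known to act on these genes were described from lists of the same kind. All 21 NF-κB subunits, inhibitors and kinases were tested and none was called, with a median log2FC of 0.11. Without Apatinib replicate 2 the median was -0.02 and BIRC3, an inhibitor of apoptosis and NF-κB target, was called lower (-1.27, edgeR FDR = 0.0352, against -0.82, edgeR FDR = 0.125, with all libraries). CHUK, the IκB kinase subunit IKKα, and TNFAIP3, an NF-κB target that encodes the inhibitor A20, had the smallest p values, with log2FC values of -0.46 and 0.61 (edgeR FDR = 0.0702 and 0.0860). TNFAIP3 had 0.38 without Apatinib replicate 2 (edgeR FDR = 0.187), and CHUK was called lower without control replicate 3 (-0.57, edgeR FDR = 0.0295). NFKBIA, which encodes IκBα, had a value of 0.24 (edgeR FDR = 0.274). Of 6 C/EBP genes, 4 were tested. CEBPD was called higher, with 39.4, 57.2 and 29.1 CPM against 22.6, 25.1 and 25.2 CPM (log2FC 0.79, edgeR FDR = 0.0330), and was highest in Apatinib replicate 2. CEBPZ, whose product is a ribosome biogenesis factor by current knowledge, was called lower with -0.82 (edgeR FDR = 0.0299). CEBPD had a smaller log2FC of 0.50 without Apatinib replicate 2 (edgeR FDR = 0.0591). For CEBPZ the value there was -0.85, about as large as with all libraries, but the FDR was above the limit (edgeR FDR = 0.0527). Both calls were also lost without Apatinib replicate 1 (0.0632 and 0.0907), control replicate 1 (0.132 and 0.111) or control replicate 2 (0.106 and 0.145), with controls 1 and 2 summed (0.117 and 0.121) and with limma on FPKM (limma FDR = 0.0814 and 0.0993).

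No gene was called among 8 p38 pathway kinases or among 15 genes of IL-1 and Toll-like receptor signalling, all of which were tested. MAPKAPK2, the p38-activated kinase that stabilizes cytokine transcripts, had an edgeR FDR of 0.0342 with a log2FC of 0.48, just under the limit, and MAPKAPK3 had one of 0.36 (edgeR FDR = 0.0865). Leaving out Apatinib replicate 2, MAPKAPK2 was called higher (0.52, edgeR FDR = 0.0372) and TLR3, a receptor of double-stranded RNA, was called lower (-0.84, edgeR FDR = 0.0494), against -0.42 for TLR3 with all libraries. MAPKAPK2 was also called without Apatinib replicate 3 (0.55, edgeR FDR = 0.0347) and without control replicate 3 (0.54, edgeR FDR = 0.0255). In the receptor signalling list, MAP3K7 and TICAM1 had the smallest p values, with log2FC values of -0.40 and 0.39 (edgeR FDR = 0.115 and 0.167). MAP3K7 was called lower without Apatinib replicate 3 (-0.56, edgeR FDR = 0.0450) and without control replicate 3 (-0.52, edgeR FDR = 0.0432). Of 11 factors of cytokine mRNA decay and stability, all tested, RC3H1, which encodes Roquin-1, was called lower with a log2FC of -0.56 (edgeR FDR = 0.0345). Its edgeR FDR was 0.103, 0.0629, 0.146 and 0.168 without Apatinib replicate 1 or 2 or control replicate 1 or 2, and 0.148 with controls 1 and 2 summed, and its limma FDR on FPKM was 0.128. ZC3H12C, of the Regnase family, had -0.56 (edgeR FDR = 0.0617) and was called lower without Apatinib replicate 2 (-0.70, edgeR FDR = 0.0431). Of 8 inflammasome and IL-1 processing genes, 6 were tested and NLRP1, an inflammasome sensor, was called higher. NLRP1 had 87.0 ± 5.43 CPM with Apatinib against 58.3 ± 3.83 CPM in the control (SD, n = 3 each), log2FC being 0.58 (edgeR FDR = 0.0136), and was not called without control replicate 1 or 2 (edgeR FDR = 0.0993 and 0.0830) or with these controls summed (edgeR FDR = 0.0875). In all, 6 genes were called higher and 3 lower among the 92 tested on the 11 lists, or 9.78%, against 11.5% of all genes tested.

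The genes whose pattern across the 6 libraries was most like that of a member were named for CCL2, LIF and IL8, the 3 members with the highest mean CPM. The measure was Pearson's r of log2 CPM over 11653 genes. RAD23B, CGRRF1, SLC38A9, DYRK1A and NR2F1-AS1 were nearest to IL8, with r of 0.990 to 1.00. ZNF134, PMS2CL, C10orf88, CHSY1 and ZNF623 were nearest to LIF (0.990 to 0.997), and RRN3P1, FAM188A, TGFBR3, NCOA1 and TMEM63A to CCL2 (0.972 to 0.989). PMS2CL and RRN3P1 are pseudogenes that share sequence with PMS2 and RRN3, and NR2F1-AS1 is antisense to NR2F1, so their counts are uncertain. The range of RAD23B was small, from 221 CPM in Apatinib replicate 1 to 282 CPM in Apatinib replicate 2, against 1.40 to 16.8 CPM for IL8. With 6 libraries in 2 groups, 313 genes had an r above 0.9 with IL8, and 2 of the 15 named genes were named again when log2 FPKM was used.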

How the data were processed

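RNA-seq of SW872 cells was analysed as 3 Apatinib and 3 control libraries. The authors deposited raw counts for each gene and, for each library, FPKM. CASAVA, STAR 2.7.1a and the build hg19 are named in the submitters' processing notes, and the counting program, its annotation and the FPKM program are not given in the sources used here. Beside these, 1 column of a per-library table was left out.

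The count test was that of edgeR 4.0.16 under R 4.3.3 (filterByExpr, TMM factors of 0.952 to 1.03, quasi-likelihood F test, Benjamini-Hochberg over 16290 genes). The 95% intervals were computed from the standard error and the degrees of freedom of that test. TMM-scaled library sizes entered CPM, and 2 was the prior count for log2 CPM. Total counts of 17043314 to 22067558 set the counting error, which is part of the model. The labels number the samples of each group, while the study's methods call them biological replicates. The p values measure the spread between these samples, except with no filter and with the block, where edgeR's prior df was infinite and each gene took the spread of the trend. Alternatives were DESeq2 1.42.0, other size factors (RLE), other filters, the replicate number as a block, FDR alone, controls 1 and 2 summed, limma 3.58.1 on log2(FPKM + 1), keeping genes whose mean exceeded 0.5 FPKM, and leaving out each library. The tests were checked on simulated data.

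The 10 genes and the lists were chosen with earlier results of these data known, so they are described without list tests. Named genes were the 10 members and, per list, up to 4 called genes in each direction or else the 2 with the smallest p value. For likeness of pattern, the 5 nearest genes with a mean of at least 5 CPM were named. Any other list gene that is named was chosen after its values were seen. The list genes were found in the table by symbol or older symbol. PECAM1, listed as an endothelial marker, was not analysed here. Promoters came from RefSeq (GRCh38.p14), where 8 of the 10 genes matched, and exon overlaps and shared sequence from GENCODE 29 by Ensembl identifier, a different build from that of the counts. CCL2 and LIF had no matched promoter entry. No authors' fold changes were used.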

Additional observations from a re-analysis of the deposited data

How the results depend on the processing

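With all libraries, the number of members called higher was 3 with no filter beyond 1 count and 3 with the replicate block (both fits without gene-specific spread), and 0 with limma on FPKM and 0 with controls 1 and 2 summed, against 1. Leaving out a single library gave 0 to 2 members higher and 0 to 2 lower, the 2 lower being IL8 and LIF without Apatinib replicate 2. The genes of the related lists called higher numbered 6, but 12 with no filter, 10 with the replicate block, 4 with limma, 1 with controls 1 and 2 summed and 1 to 9 without a library. Those called lower numbered 3, but 5 with no filter, 5 with the replicate block, 0 with limma, 0 with controls 1 and 2 summed and 0 to 9 without a library. Over all genes, 893 were called lower, but 1261 with no filter, 1168 with the block, 240 with limma and 85 with controls 1 and 2 summed. Without a library, 83 to 1492 were, the most without control replicate 3, where the lists had 9. For samples of the same replicate number, the correlations of their deviations from the group means were -0.259, 0.0808 and -0.220. With 3 samples per group and no other pairing compared, these values cannot decide whether the numbers pair the samples. The block, in a fit without gene-specific spread, raised the calls over all genes from 1866 to 2215. The sign of IL8 turned to -0.67 with the replicate block, -0.39 with limma, and ranged from -1.95 to 0.50 without a library. LIF turned to -0.11 with the block and -0.035 with limma, and ranged from -0.64 to 0.39. CXCL1 was 0.0039 with limma and ranged from -0.53 to 0.17, and CCL2 ranged from -0.057 to 0.13. The members' median ranged from -0.057 to 0.76 without a library. With all libraries it was 0.029 with the block and 0.46 both with DESeq2 and with no filter. In the last 2 fits IL6, CXCL2 and IL1A also gave a value. IL11, IL1B and CXCL3 kept their sign in all 13, 13 and 12 other fits that gave a value. Over all genes, the calls ranged from 275 without control replicate 1 to 2594 without control replicate 3, and were 292 with controls 1 and 2 summed and 796 with limma. In the control order of levels, CPM in place of FPKM exchanged CXCL1 and IL1B. IL6, CXCL2 and IL1A, at 1 to 20 counts per library, are limited by depth.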

Other observations

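Some genes of the related lists were high in Apatinib replicate 2 and were singled out after their values were seen. GDF15, a stress-induced cytokine of the TGF-β superfamily, had 7.06 CPM in Apatinib replicate 2, against 0.524 and 0.286 CPM in Apatinib replicates 1 and 3 and 0.173 to 0.495 CPM in the control. It did not pass the filter on low counts and was not tested. TSLP, an epithelial and stromal cytokine, had 2.91, 7.23 and 2.63 CPM with Apatinib against 2.02, 1.93 and 1.83 CPM in the control (log2FC 1.15, edgeR FDR = 0.0605), and every Apatinib replicate was above the control. CEBPG, a C/EBP partner, had 46.7, 122.7 and 48.1 CPM with Apatinib against 52.1, 47.8 and 34.8 CPM in the control (log2FC 0.69, edgeR FDR = 0.168). RELB, an NF-κB subunit, had 7.10, 16.0 and 5.27 CPM with Apatinib against 3.87, 6.65 and 5.27 CPM (log2FC 0.84, edgeR FDR = 0.139). Without Apatinib replicate 2, the log2FC was 0.53 for TSLP, 0.09 for CEBPG and 0.23 for RELB (edgeR FDR = 0.158, 0.756 and 0.551).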
